A study of Mus musculus with 18 samples.

Results

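The heat shock chaperones were followed as 10 genes, Hspa1a, Hspa1b, Hspa8, Hsph1, Dnajb1, Hspb1, Hspd1, Hspe1, Hsp90aa1 and Hsp90ab1, which were taken by their symbols from the 43346 genes of the count table. All 10 were among the 26717 genes with a mean count above 0 that were tested. RNA had been measured in Lgr5+ cells of the small intestine (SI) and the large intestine (LI) of untreated C57BL/6 mice with the genotype Lgr5_eGFP_Iris_creERT2, in which GFP is driven from the Lgr5 locus. Ages of 8 to 20 weeks stand in the labels, whereas the study's methods allow up to 50 weeks. Crypts were digested with TrypLE, and living EPCAM-positive cells were sorted by GFP, where high GFP stood for the crypt centre, medium GFP for the border and low GFP for row >3. Each of the 6 groups held 3 replicates, which gave 18 libraries. The study describes these as biological replicates, with 3 mice in 1 figure legend and a different number of mice in another. Which mouse stands behind a replicate number, and whether SI and LI libraries of 1 number came from the same mouse, is not given in the sources used here.

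Heat shock chaperones bind proteins that are unfolded or newly made and help them fold, assemble or be handed on. HSP70 proteins work in cycles with J-domain partners and nucleotide exchange factors, HSP90 proteins receive clients such as kinases and steroid receptors, and the HSP60 and HSP10 pair forms a folding chamber in the mitochondrial matrix. Some of these genes are transcribed at a high level in all dividing cells, whereas others are switched on within minutes by HSF1, which binds inverted repeats of the letters GAA in their promoters, for example after heat or during handling of cells. In the gut epithelium, inducible HSP70 and the small heat shock protein encoded by Hspb1 are known to protect against injury and to depend in part on bacteria in the lumen.

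The promoter stretches below are shown because they carry the GAA repeats of 2 neighbouring gene pairs whose members moved together across the libraries. They were read 5′ to 3′ from RefSeq on GRCm38.p6, and capitals mark the GAA and TTC letters of the repeat. Hspa1a lies on chr17:34969190-34972156 and Hspa1b on chr17:34956436-34959238, both on the minus strand as a single exon, with 9951 bases between the genes. The stretch at chr17:34972197-34972316 of Hspa1a and the stretch at chr17:34959279-34959398 of Hspa1b, both on the minus strand and both from position -160 to -41 of the start, are identical in all 120 bases. The stretch of Hspe1 lies at chr1:55088053-55088082 on the plus strand, from position -95 to -66 of the Hspe1 start at 55088148. Hspd1 is transcribed in the other direction, with RefSeq starts at 55087932 and 55088243. The stretch lies between the Hspe1 start and the former Hspd1 start, and downstream of the latter.
Hspa1a and Hspa1b: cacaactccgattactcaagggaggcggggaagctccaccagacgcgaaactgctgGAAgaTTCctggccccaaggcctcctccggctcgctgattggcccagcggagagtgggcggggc
Hspe1 and Hspd1: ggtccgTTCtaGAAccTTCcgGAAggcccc

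RefSeq sequences from 250 bases before to 50 bases after a start were at hand for 7 of the 10 genes, and none was found for Hspa8, Hsp90aa1 or Hsp90ab1. Either arrangement of a pair of repeat units, GAANNTTC or TTCNNGAA, was searched on both strands and occurred in 15.1% of 32851 promoter sequences. A run of 3 units, GAANNTTC continued by NNGAA or TTCNNGAA continued by NNTTC, occurred in 0.603% of them. The runs overlap the pairs by construction. Hspa1a and Hspa1b each held GAANNTTC at position -104, and Hspb1 held it at -117 and -97. Hspd1 and Hspe1 shared a run of at least 3 units. It began at -144 of the Hspd1 start at 55087932 and at -89 of the Hspe1 start. Hsph1 held a pair of units at -33 and a run of 3 units at position 37 of its upstream start, which are -54 and 16 of its other start, and Dnajb1 held no match in this window. The promoters of Hspa1a and Hspa1b were identical in 247 of the 250 bases before their starts, and 47.1% of the stretches of 100 bases in Hspa1a also occur in Hspa1b. Reads of the 2 genes could therefore be split between them, so their sum is given as well as their single values.

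Totals per library lay between 8312093 and 31940965 counts, with a median of 21934851.5, and the 10 genes took between 0.208% and 0.670% of them. Epithelial marker sums lay between 49644 and 123472 normalised counts per library, against at most 590.3 for 6 immune and 304 for 6 stromal and endothelial markers. The normalised count is the count divided by the size factor of the library. The sums of 4 Lgr5+ stem cell markers were lower at lower GFP, with 11514 to 24009 in SI centre and 968 to 4679 in SI row >3 libraries, and with 7111 to 8330 in LI centre and 1614 to 2253 in LI row >3 libraries. SI libraries of replicate 3 stood apart in the sum of 2 LI markers, Hoxb13 and Car1. These summed to 1668, 22796 and 38981 in their centre, border and row >3 cells and to at most 215 in the other SI libraries. LI libraries held 2498 to 4510 in centre, 3444 to 11448 in border and 15895 to 26487 in row >3 cells. SI replicate 3 was above every LI library of its level in border and row >3 cells and below each in centre cells. The sums do not show whether both genes rose. Between SI levels, 1 of the 2 genes had a log2 fold change above 0 and none had one below 0, so the sum may rest on 1 gene. Sums of 3 SI markers in SI replicate 3 were 17526, 1178 and 326, the lowest SI values of each level, against at most 83.1 in the LI. Which cells these SI libraries held was not tested, and they were kept in the site comparisons. LI libraries of replicate 3 stood apart in the heat shock genes themselves. Reads on the Y-linked gene Ddx3y were present in replicate 2 of both sites alone, apart from a single read elsewhere. Counts were compared in 1 fit of the 6 groups with edgeR's quasi-likelihood test and Benjamini-Hochberg adjustment over all genes tested, and a gene was called at an adjusted p under 0.05. Fold changes are log2 values from this fit. In bulk libraries such as these, fewer cells of a type and less RNA per cell cannot be told apart.

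The HSP90 and HSP70 genes that are always transcribed led the class. Counts scaled to an equal library total (CPM) and divided by the kb of exon, a level that can be compared between genes, were highest for Hsp90ab1, the constitutive cytosolic HSP90, with a mean of 756 ± 145 (SD over 18 libraries). Hspa8, the constitutive HSP70, followed with 283 ± 57.2, and was below Hsp90ab1 in 18 of 18 libraries. The mitochondrial HSP60 gene Hspd1 was at 165 ± 40.4 and the inducible HSP90 gene Hsp90aa1 at 148 ± 44.3. These neighbours were not separated, since Hspd1 was above Hsp90aa1 in 13 of 18 libraries. Hspe1, which encodes the HSP10 lid of the mitochondrial chamber, followed at 63.1 ± 15.9.

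The inducible genes other than Hsp90aa1 were lower on this scale and spread more relative to their level. Hspa1b was at 23.2 ± 28.5, the J-domain gene Dnajb1 at 19.9 ± 11.8, the HSP110 exchange factor Hsph1 at 17.3 ± 7.35 and Hspa1a at 10.3 ± 13.4. Hspa1b was above Dnajb1 in 6 of 18 libraries, so their order rests on a few libraries with high Hspa1b, and Dnajb1 was above Hsph1 in 12 of 18. Hspa1a was below Hspa1b in 18 of 18 libraries. With the longest transcript in place of the union of exons, 7 of the 10 genes kept their rank, and Hsph1, Hspa1b and Dnajb1 changed places among themselves.

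Hspb1, the small heat shock protein of many epithelia, was close to absent from these cells. It had 43 counts in all 18 libraries, 0 counts in 10 of them and at most 16 in 1 library. The SI groups held 1, 0 and 1 counts in centre, border and row >3 cells, and the LI groups held 14, 7 and 20. A count of 0 allows up to 3 counts in a library, counting error only. Sequence is also shared between Hspb1 and a pseudogene over 44% of its stretches of 100 bases, so even these few counts are not assigned with certainty.

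**Figure D1:**
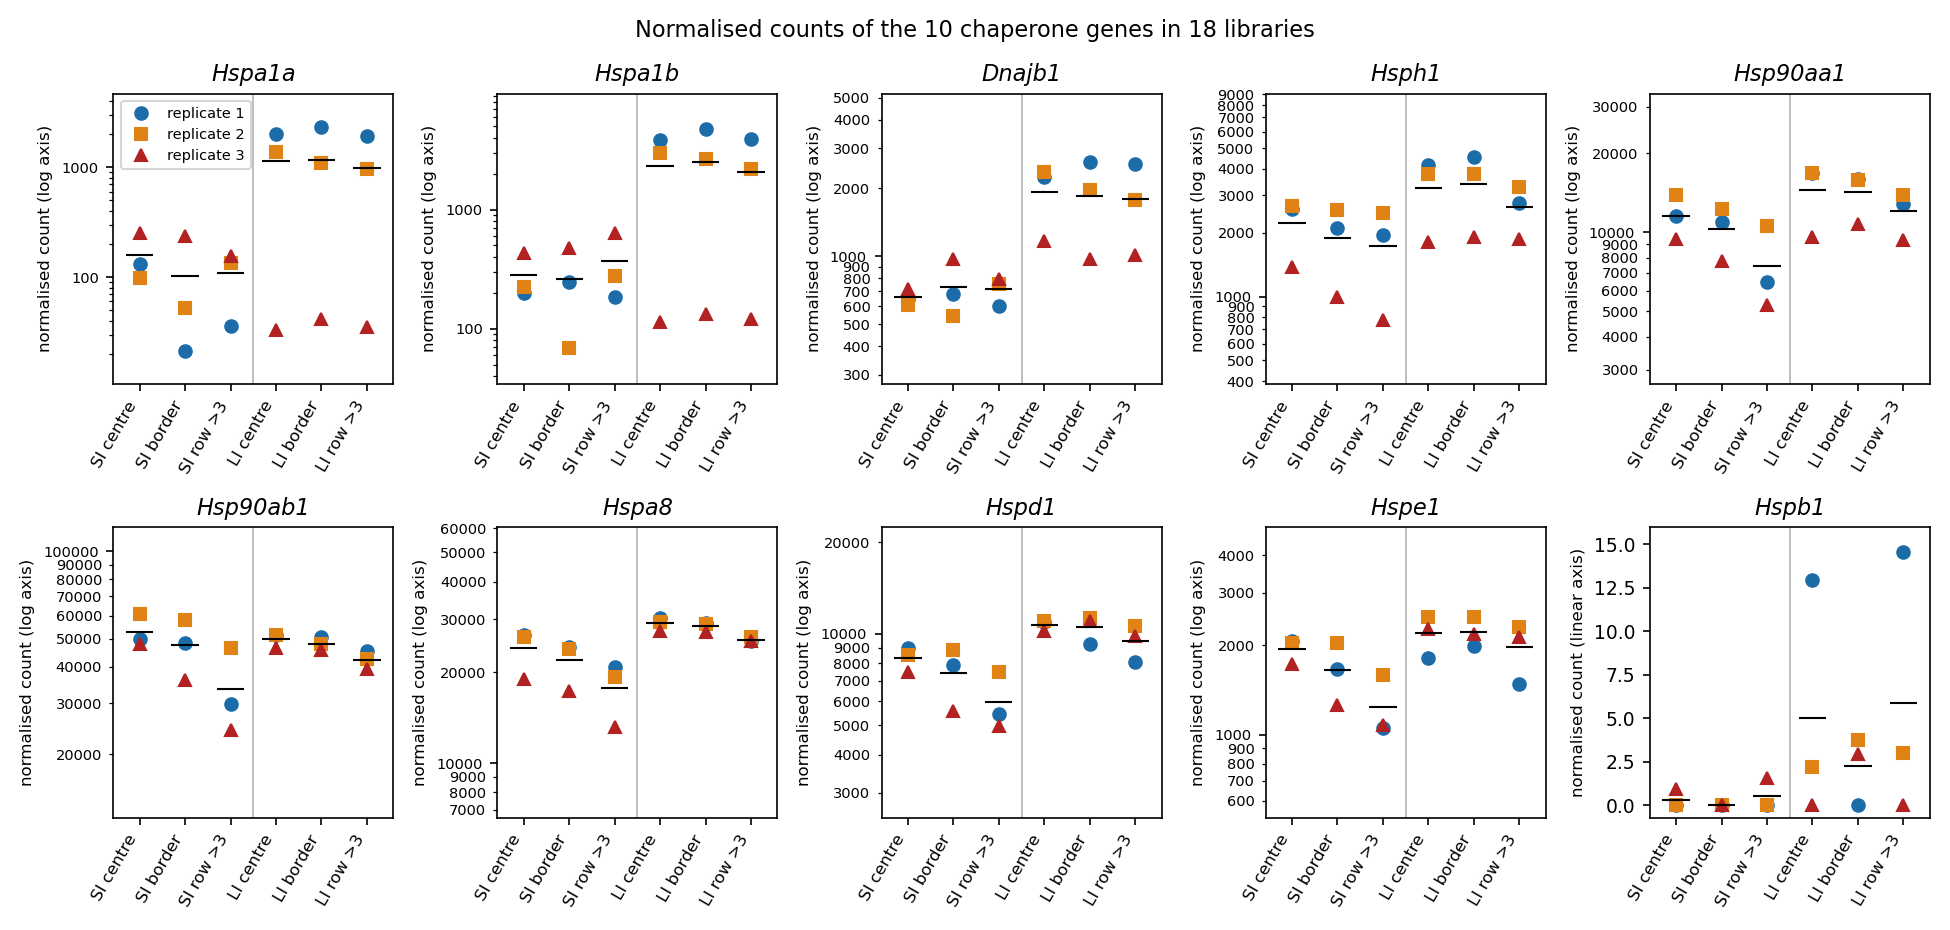
Normalised counts of the 10 heat shock chaperone genes in each of the 18 libraries, 1 panel per gene, on log axes except for Hspb1, whose axis is linear, with the 6 groups along the x axis, a symbol for each replicate number and a line at the group mean. Hspa1a and Hspa1b in the LI split into replicates 1 and 2 at 965 or more and replicate 3 at 132 or less.

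Between the sites, the inducible HSP70 genes showed wide differences, and these went in opposite directions in different replicates. Hspa1b had 198, 223 and 429 normalised counts in SI centre, 248, 68.7 and 471 in SI border and 186, 278 and 638 in SI row >3 cells (replicates 1, 2 and 3). In the LI it had 3833, 2964 and 114 in centre, 4706, 2634 and 132 in border and 3914, 2182 and 122 in row >3 cells. Replicates 1 and 2 of the LI were above every SI library at all 3 levels, whereas replicate 3 of the LI was below every SI library except 1 border library. By replicate number, the LI level of Hspa1b was 19.4-fold the SI level in replicate 1, 13.3-fold in replicate 2 and 0.265-fold in replicate 3 of centre cells.

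Hspa1a followed the same course in the LI and was lower than Hspa1b. Its normalised counts were 130.5, 98.5 and 249.9 in SI centre, 21.3, 51.8 and 237 in SI border and 36.2, 133 and 155 in SI row >3 cells. In the LI they were 1995, 1376 and 32.7 in centre, 2355, 1099 and 41.7 in border and 1945, 965 and 34.9 in row >3 cells. Replicates 1 and 2 of the LI were above the highest SI value of 249.9, and replicate 3 of the LI was among the 5 lowest libraries, so the groups of the 2 sites overlapped at each level. Summed over both genes, replicates 1 and 2 of the LI had on average 34.7-fold, 31.1-fold and 28.8-fold the level of replicate 3 in centre, border and row >3 cells. In the SI the direction was the other one, and replicates 1 and 2 had 0.478, 0.275 and 0.400 of the level of replicate 3.

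With all libraries in the fit, the site difference of these genes was large but not called. Hspa1a had a log2 fold change of SI over LI of -2.87 (SE 1.53) in centre, -3.39 (SE 1.61) in border and -3.28 (SE 1.60) in row >3 cells, with edgeR's adjusted p of 0.440, 0.381 and 0.357. Hspa1b had -3.06 (SE 1.43), -3.25 (SE 1.46) and -2.57 (SE 1.40), with adjusted p of 0.352, 0.344 and 0.434 by the same test. Replicate number within a site held 69.8% of the variance of log2 Hspa1a and 67.9% of that of log2 Hspa1b, against 24.9% and 28.3% for the site.

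Dnajb1, the J-domain partner that hands clients to HSP70, separated the sites more cleanly. It had 646, 609.6 and 719 normalised counts in SI centre, 682, 546 and 969.9 in SI border and 603, 757 and 793 in SI row >3 cells. In the LI it had 2244, 2364 and 1171 in centre, 2613, 1960.0 and 969.2 in border and 2551, 1773 and 1016 in row >3 cells. All LI libraries were above all SI libraries in centre and row >3 cells. In border cells, replicate 3 of both sites met at almost the same normalised count, and the sites were separate only on the CPM of the fit, with 48.5 in the SI and 50.3 in the LI for that replicate. The site held 73.7% of its variance.

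SI levels of Dnajb1 were below LI levels by a log2 fold change of -1.60 (SE 0.37) in centre cells and of -1.37 (SE 0.36) in row >3 cells, and both differences were called by edgeR with adjusted p of 0.0328 and 0.0464. In border cells the change was -1.37 (SE 0.37) and was not called (edgeR's adjusted p = 0.0738). The call in centre cells was lost without SI centre replicate 1 or 2 or LI centre replicate 1 or 2, with adjusted p between 0.0927 and 0.147 in edgeR. The call in row >3 cells was lost, with adjusted p between 0.0597 and 0.208, without any of 10 libraries, which were SI row >3 replicates 1, 2 and 3, LI row >3 replicates 1 and 2, SI centre replicates 1 and 2, SI border replicate 1, LI centre replicate 1 and LI border replicate 2. The log2 fold change in row >3 cells lay between -1.63 and -1.03 when any 1 library was left out. In border cells a call was gained without SI border replicate 3, LI border replicate 3 or LI row >3 replicate 3, with edgeR's adjusted p between 0.0295 and 0.0443.

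Hsph1, which exchanges the nucleotide of HSP70, and Hsp90aa1 were low in replicate 3 of both sites. Hsph1 had 2587, 2685 and 1376 normalised counts in SI centre, 2113, 2551 and 995 in SI border and 1957, 2491 and 774 in SI row >3 cells. LI libraries held 4185, 3778 and 1817 in centre, 4541, 3799 and 1911 in border and 2777, 3306 and 1869 in row >3 cells. Replicates 1 and 2 of the LI were above all SI libraries at the same level, while replicate 3 of the LI lay within the SI range. Within a replicate number, the LI level was higher in 9 of 9 pairs of libraries, by between 1.32-fold and 2.41-fold. The fitted log2 fold changes of SI over LI were -0.61, -0.92 and -0.67 in centre, border and row >3 cells, and none was called (edgeR's adjusted p of 0.650, 0.444 and 0.607).

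Hsp90aa1, the inducible cytosolic HSP90, had 11516, 13807 and 9386 normalised counts in SI centre, 10916, 12236 and 7803 in SI border and 6483, 10561 and 5289 in SI row >3 cells. Its LI values were 16869, 16822 and 9603 in centre, 15938, 15844 and 10728 in border and 12850.4, 13906 and 9378 in row >3 cells. The LI was higher in 9 of 9 pairs of the same replicate number, by between 1.02-fold and 1.98-fold, but the groups overlapped at all 3 levels. Without a block on the replicate number, its site difference was not called at any level, with log2 fold changes of -0.37, -0.52 and -0.76.

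Hspa8 and the mitochondrial pair were also lower in the SI, with less spread between replicates than Dnajb1 or Hsph1. Hspa8 had 26676, 26234 and 19063 normalised counts in SI centre, 24282, 23983 and 17400.5 in SI border and 20888, 19275 and 13189 in SI row >3 cells. Its LI values were 30343, 29439 and 27426 in centre, 29135, 28955 and 27272 in border and 25435, 26141 and 25368 in row >3 cells. The sites did not overlap at any level, and SI replicate 3 was the lowest library each time. SI over LI gave log2 fold changes of -0.33 (SE 0.15) in centre, -0.44 (SE 0.15) in border and -0.59 (SE 0.15) in row >3 cells, of which the last was called (edgeR's adjusted p = 0.0282). That call was lost without SI row >3 replicate 3, LI row >3 replicate 1, 2 or 3, or LI centre replicate 2, with edgeR's adjusted p between 0.0513 and 0.143.

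Hspd1, which encodes the HSP60 chamber of mitochondria, had 8999, 8544 and 7514 normalised counts in SI centre, 7915, 8832 and 5589 in SI border and 5444, 7481 and 4966 in SI row >3 cells. LI libraries held 10899.7, 10995 and 10237 in centre, 9288, 11242 and 11046 in border and 8064, 10609.8 and 9844 in row >3 cells. Again the sites did not overlap at any level. The SI was lower by log2 fold changes of -0.42 (SE 0.17), -0.57 (SE 0.17) and -0.73 (SE 0.17) in centre, border and row >3 cells, and that of row >3 cells was called (edgeR's adjusted p = 0.0126). The call was lost without SI row >3 replicate 1 or 3 or LI row >3 replicate 2 or 3, with edgeR's adjusted p between 0.0640 and 0.136.

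Hspe1, whose product closes that chamber, had 2057, 2027 and 1729 normalised counts in SI centre, 1659.9, 2034 and 1257 in SI border and 1054, 1584 and 1079 in SI row >3 cells. Its LI values were 1815, 2491 and 2256 in centre, 1987, 2485 and 2171 in border and 1480.3, 2295 and 2132 in row >3 cells. The sites overlapped at every level. In row >3 cells the SI was lower by a log2 fold change of -0.73 (SE 0.21) and the difference was called (edgeR's adjusted p = 0.0472), but the call was lost without any of 13 libraries, with adjusted p between 0.0508 and 0.330. These were SI centre replicates 1, 2 and 3, SI border replicate 1, SI row >3 replicates 1 and 3, LI centre replicates 2 and 3, LI border replicates 1, 2 and 3 and LI row >3 replicates 2 and 3.

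Hsp90ab1, the most abundant gene of the class per length, did not follow the site in centre and border cells. It had 49935, 60649.6 and 48057 normalised counts in SI centre, 48340.4, 58085 and 36089.6 in SI border and 29738, 46406 and 24199 in SI row >3 cells. LI libraries held 51471, 51556 and 46543 in centre, 50724, 47868 and 45647 in border and 45195, 42526 and 39178 in row >3 cells. The sites overlapped at every level, and SI over LI gave log2 fold changes of 0.03 (SE 0.18), -0.08 (SE 0.18) and -0.40 (SE 0.18), with none called by edgeR (adjusted p of 1, 0.942 and 0.258). The sign turned to -0.077 in centre cells without SI centre replicate 2 and below 0 without LI centre replicate 3, and to 0.064 in border cells without SI border replicate 3. The site held 8.00% of its variance.

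Over the 10 genes, edgeR called 1 gene lower in SI centre cells, where 1.99% of all genes tested were called, 0 in border cells, where 1.75% were called, and 4 in row >3 cells, where 4.09% were called. Shares of all genes tested, here and below, take in every gene with a mean count above 0, also those with few counts. All of the 10 but Hspb1 were at percentile 81.4 or higher of these genes by mean count. Shares among genes of a like level were not computed. Without SI row >3 replicate 2, Hsp90aa1 with -1.08 and Hsp90ab1 with -0.70 were called in row >3 cells too, with edgeR's adjusted p of 0.0230 and 0.0125. Of the 10 genes, 3, 5 and 6 had an unadjusted p under 0.05 in centre, border and row >3 cells. Over all 26717 genes tested, 3884, 3706 and 4193 did. In border cells DESeq2 called 1, Dnajb1, and 4.54% of all genes. No gene of the class was called higher in the SI. Every SI library was below every LI library, on the CPM of the fit, for Dnajb1, Hspa8 and Hspd1 at each level, which is 3 of 10 genes against 9.84%, 8.58% and 8.69% of all genes tested in centre, border and row >3 cells. The median log2 fold change of the 10 genes, with Hspb1 and its few counts included, was -0.51, -0.74 and -0.74. The median over all genes tested was 0 in every comparison of the fit, so it is not taken as a contrast.

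**Figure D2:**
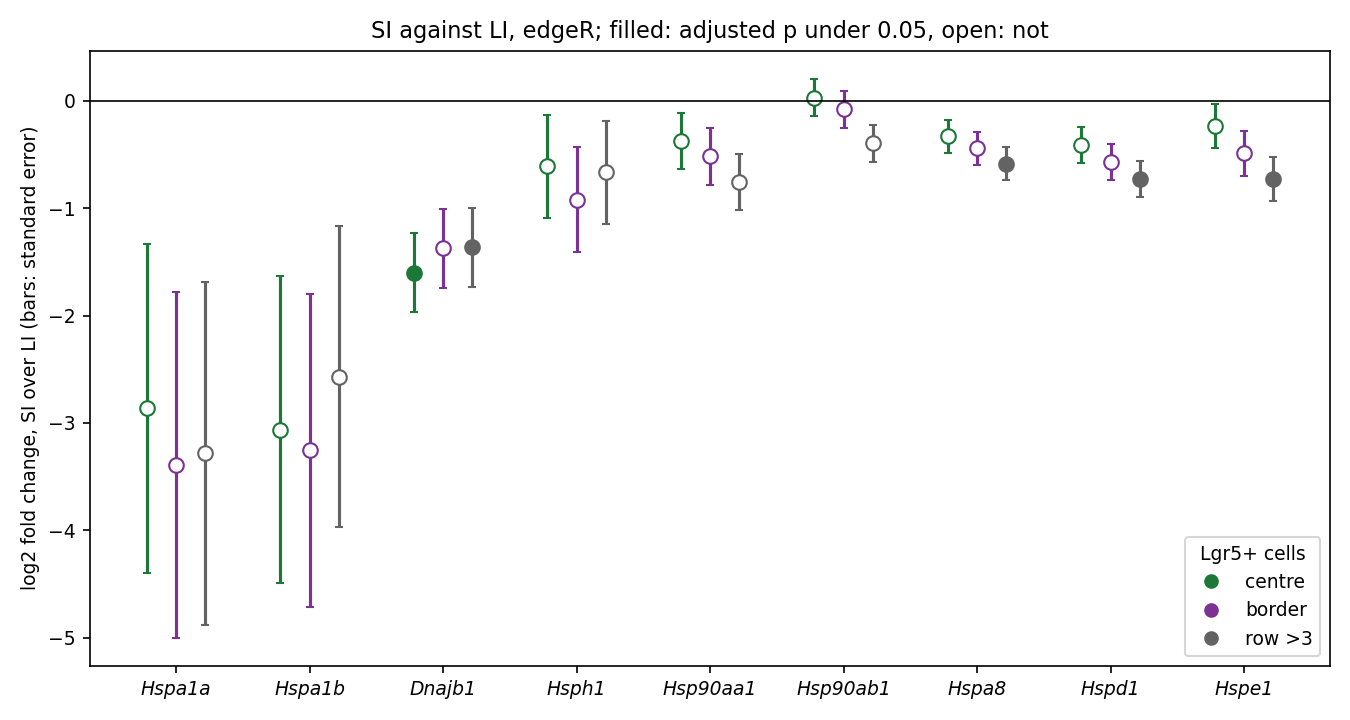
Log2 fold change of SI over LI (y axis) for 9 heat shock chaperone genes (x axis, without Hspb1) in centre, border and row >3 cells, with bars of 1 SE on each side from edgeR's fit, filled symbols for an adjusted p under 0.05 and open symbols otherwise. The filled symbols are Dnajb1 in centre cells and Dnajb1, Hspa8, Hspd1 and Hspe1 in row >3 cells, and the widest bars belong to Hspa1a and Hspa1b.

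Deviations from the group means correlated only weakly between border cells of the 2 sites with equal replicate numbers, at 0.197, 0.271 and 0.184. In centre cells these values were 0.020, 0.314 and 0.080, and in row >3 cells -0.030, 0.332 and 0.108. Whether the sites share mice is not known, so a fit blocked on replicate number over all libraries is given as an alternative only. It called 4 of the 10 genes lower in SI border cells, where 4.27% of all genes tested were called. These were Hsph1 with a log2 fold change of -0.94 (SE 0.16; adjusted p = 0.00136 in edgeR), Hsp90aa1 with -0.52, Hspd1 with -0.58 and Hspa8 with -0.46.

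Replicate 3 of the LI was low for the inducible genes of the class. The ratio of replicate 3 to the mean of replicates 1 and 2 in LI centre, border and row >3 cells was 0.0194, 0.0241 and 0.0240 for Hspa1a and 0.0334, 0.0359 and 0.0399 for Hspa1b. It was 0.508, 0.424 and 0.470 for Dnajb1, 0.456, 0.458 and 0.615 for Hsph1 and 0.570, 0.675 and 0.701 for Hsp90aa1. The constitutive Hspa8 and Hsp90ab1 and the mitochondrial Hspd1 and Hspe1 stayed between 0.893 and 1.13. Over all genes with a mean of at least 20 normalised counts, the median of this ratio was 0.994, 1.002 and 1.004 in the 3 groups, and 5.32%, 4.54% and 5.35% of genes were below 0.5. Of 15 immediate-early genes, another class that is known to be raised by handling of cells, the median ratio was 0.889, 0.829 and 0.787.

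In SI replicate 3 the pattern was another one. Hspa1a was 2.18-fold, 6.48-fold and 1.82-fold, and Hspa1b 2.04-fold, 2.98-fold and 2.75-fold, the mean of replicates 1 and 2 in centre, border and row >3 cells, while Hsph1 was at 0.522, 0.427 and 0.348 of it. Dnajb1 was at 1.15, 1.58 and 1.17 of the mean. Hspa8, Hsp90aa1, Hsp90ab1, Hspd1 and Hspe1 were lower in SI replicate 3 at each level, at between 0.621 and 0.869 of the mean. These are the 3 libraries that also had higher sums of the LI markers than the other SI libraries, and the part of that in these values was not tested.

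**Figure D3:**
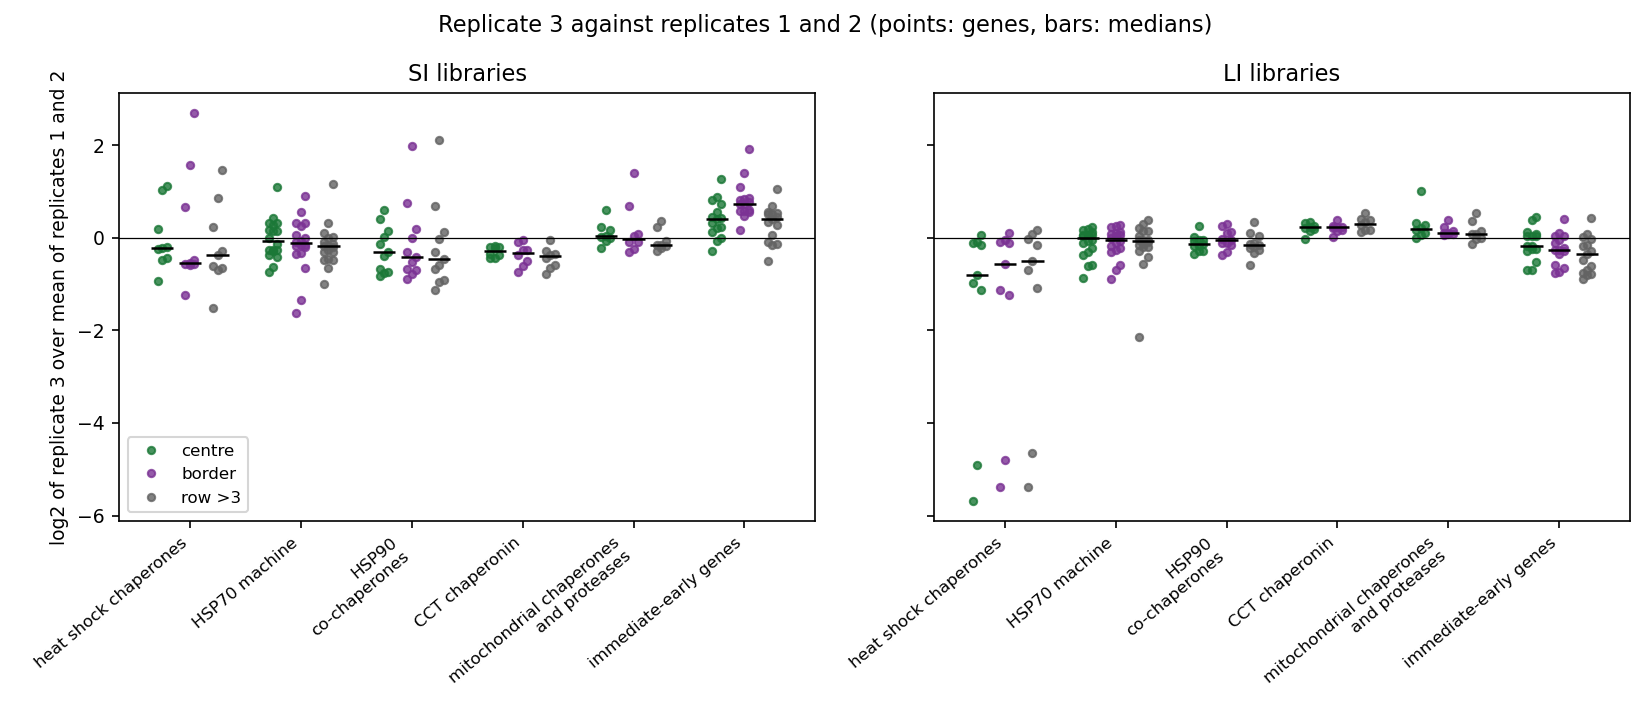
Log2 ratio of replicate 3 to the mean of replicates 1 and 2 (y axis) in SI and LI libraries for 9 heat shock chaperones (without Hspb1), 4 other chaperone lists and the immediate-early genes, where points are genes, black lines are medians and colours are the 3 levels. The lowest points of the LI are Hspa1a and Hspa1b, whose ratios before the log2 step were 0.0194 to 0.0399.

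Without the 6 libraries of replicate 3, 4, 4 and 6 of the 10 genes were called lower in SI centre, border and row >3 cells, where 8.08%, 5.96% and 9.58% of 25584 genes tested were called. These libraries were chosen after the values of Hspa1a and Hspa1b in them were seen, so the counts and fold changes are a description and no p-value is given. Hspa1a then differed by -3.88, -5.45 and -4.16, Hspa1b by -4.03, -4.72 and -3.76 and Dnajb1 by -1.90, -1.95 and -1.71 on the log2 scale. Hsph1 was called in centre and border cells with -0.61 and -0.87, and Hspa8, Hspd1 and Hsp90aa1 were called in row >3 cells with -0.41, -0.58 and -0.70.

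Immediate-early genes were lower in the SI as well and are given beside the site difference. The summed level of the 15 genes lay between 20799.8 and 46769 normalised counts in SI libraries and between 61676 and 112420.1 in LI libraries, with no overlap. By edgeR's test 12, 12 and 10 of the 15 were lower in SI centre, border and row >3 cells, against 1.99%, 1.75% and 4.09% of all genes called, among them Nr4a1 with log2 fold changes of -1.83, -1.72 and -2.44. LI replicate 3 had the lowest sum of its level, with 69882, 61676 and 70609.9 in centre, border and row >3 cells, and each of these was above every SI library. The part of this class in the site difference of the chaperones was not tested.

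Along the GFP levels of the SI, a pair of abundant chaperones fell from centre to row >3 cells. Hsp90ab1 fell by 0.66 on the log2 scale (SE 0.18) and Hspe1 by 0.64 (SE 0.21), and both were called by edgeR with adjusted p of 0.0144 and 0.0416. All row >3 libraries were below all centre libraries for Hsp90ab1, Hspe1 and Hspd1, which is 3 of 10 genes against 12.3% of all genes tested. Hspd1 had a log2 fold change of -0.48 (SE 0.17; edgeR's adjusted p = 0.0609), Hspa8 of -0.43 (SE 0.15; adjusted p = 0.0666) and Hsp90aa1 of -0.63 (SE 0.26; adjusted p = 0.137). Hsph1 had -0.34, Hspa1a -0.61, Hspa1b 0.36, Dnajb1 0.13 and Hspb1 0.01, each within 1 SE of 0.

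The 2 called genes are 2 of 10, where 13.2% of all genes tested were called in this comparison. An unadjusted p under 0.05 was found for 5 of the 10 and for 6395 of the 26717 genes tested. The median log2 fold change of the 10 was -0.46, and the median over all genes tested was 0, as in every comparison of the fit. The call of Hsp90ab1 was lost without SI row >3 replicate 1 (edgeR's adjusted p = 0.0979), SI row >3 replicate 3 (0.109) or SI centre replicate 2 (0.0842), and its fold change stayed between -0.96 and -0.47. The call of Hspe1 was lost without any of 10 libraries, with edgeR's adjusted p between 0.05004 and 0.221. These were SI centre replicates 1 and 2, SI border replicate 1, SI row >3 replicates 1 and 3, LI centre replicate 2, LI border replicates 2 and 3 and LI row >3 replicates 2 and 3. Calls were gained by Hspd1 without SI row >3 replicate 2 or SI border replicate 3, by Hsp90aa1 without SI row >3 replicate 2, where it had -0.96, and by Hspa8 without SI border replicate 3 or SI centre replicate 3.

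Within the SI, libraries of the same replicate number deviated together. Blocking on it within each site, edgeR called 6 of the 10 genes lower in row >3 than in centre cells, where 22.8% of all genes tested were called. Beside Hsp90ab1 with a log2 fold change of -0.70 (SE 0.09) and Hspe1 with -0.67 (SE 0.12), these were Hspa8 with -0.44 (SE 0.07), Hspd1 with -0.50 (SE 0.11), Hsp90aa1 with -0.67 (SE 0.10) and Hsph1 with -0.42 (SE 0.13), the last with the highest adjusted p of the 6 (0.0254 in edgeR). Hspa1a, Hspa1b and Dnajb1 were not called in this fit either. By replicate number, the row >3 library was below the centre library in 3 of 3 SI pairs for each of the 6 genes.

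Between row >3 and border cells of the SI, 0 of the 10 genes were called by edgeR and 0 by DESeq2, where edgeR called 1.61% of all genes tested. An unadjusted p under 0.05 was found for 3631 of the 26717 genes tested and for 1 of the 10, Hsp90ab1, with a log2 fold change of -0.49. Its call was gained without SI row >3 replicate 2 or SI border replicate 3, with edgeR's adjusted p of 0.0151 and 0.0384. With the block within site 4 were called lower, where 9.78% of all genes tested were called. These were Hsp90ab1 with -0.52, Hsp90aa1 with -0.49, Hspe1 with -0.40 and Hspa8 with -0.30. For border against centre in the SI, 0 of 10 were called by edgeR, which called 0.0112% of all genes tested, and DESeq2 called 0. Here 0 of 10 and 2399 of all genes tested had an unadjusted p under 0.05.

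In the LI, none of the 10 genes was called between levels, and the log2 fold changes of row >3 over centre were closer to 0 than in the SI for the 6 genes that fell there with the block. Between row >3 and centre cells edgeR called 0 of 10, where it called 0.0187% of all genes tested. DESeq2 called 0, and 0 had an unadjusted p under 0.05, against 1859 of all genes tested. The log2 fold changes were -0.23 (SE 0.18) for Hsp90ab1, -0.18 (SE 0.15) for Hspa8, -0.25 (SE 0.26) for Hsp90aa1, -0.17 (SE 0.17) for Hspd1 and -0.15 (SE 0.20) for Hspe1, with a median of -0.17 over the 10 genes. Every row >3 library was below every centre library for Hspa8 and Hsp90ab1, 2 of 10 against 7.07% of all genes tested. By replicate number, row >3 was below centre in 3 of 3 LI pairs for 5 of those 6 genes, Hspa8, Hspd1, Hspe1, Hsp90aa1 and Hsp90ab1, and in 2 of 3 for Hsph1. With the block within site edgeR again called 0 of 10, where it called 2.59% of all genes tested, and 3 had an unadjusted p under 0.05, Hsp90ab1 with -0.23, Hsp90aa1 with -0.23 and Hspa8 with -0.18. For Hspa8 and Hsp90ab1 every row >3 library was also below every border library, against 5.18%. Between row >3 and border cells, and between border and centre cells, edgeR and DESeq2 each called 0 of 10 and 0 had an unadjusted p under 0.05. Of all genes tested edgeR called 0% and DESeq2 0 in both, and edgeR gave 993 and 368 of them an unadjusted p under 0.05.

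The fall along the levels was not shown to differ between the sites. The log2 fold change of row >3 over centre in the SI minus that in the LI was -0.43 (SE 0.25) for Hsp90ab1 and -0.49 (SE 0.29) for Hspe1, with edgeR's adjusted p of 0.856 and 0.862. For border over centre and for row >3 over centre, edgeR and DESeq2 called 0 of the 10 genes for a difference between the sites, 0 had an unadjusted p under 0.05 in edgeR, and edgeR called 0% of all genes tested. With the block within site, which takes equal replicate numbers as pairs, 0 of the 10 were called for row >3 over centre, where 2.32% of all genes tested were called, but 5 had an unadjusted p under 0.05. These were Hsp90ab1 with a difference of -0.47 (SE 0.12), which came closest to a call (edgeR's adjusted p = 0.0519), Hspe1 with -0.51, Hsp90aa1 with -0.44, Hspd1 with -0.33 and Hspa8 with -0.26. In the fit with no block, over all genes 708 and 1800 had an unadjusted p under 0.05 and DESeq2 called 2 and 149.

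**Figure D4:**
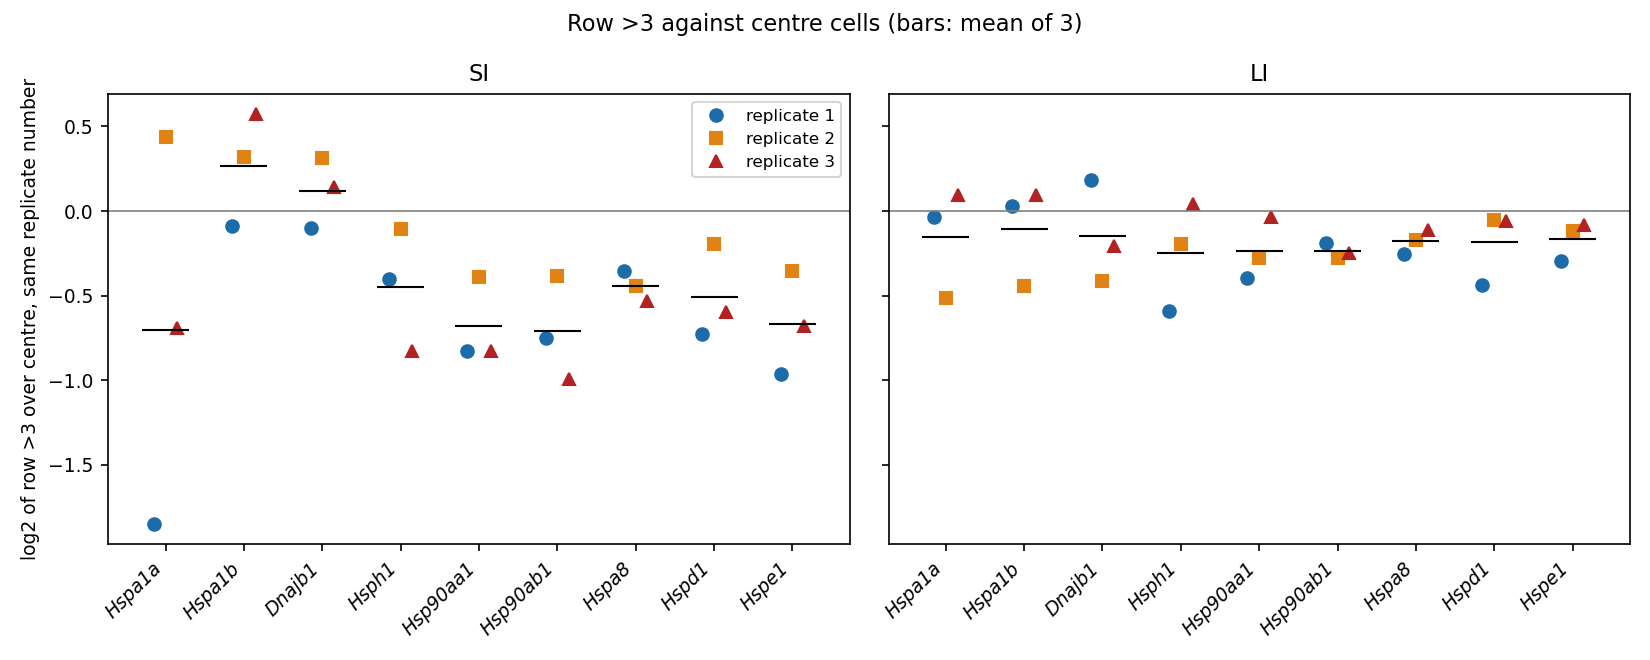
Log2 ratio of row >3 over centre normalised counts of the same replicate number (y axis) for 9 heat shock chaperone genes (x axis, without Hspb1) in SI and LI, with a symbol per replicate number and a line at the mean of 3. Hsph1, Hsp90aa1, Hsp90ab1, Hspa8, Hspd1 and Hspe1 lie below 0 in all 3 SI pairs.

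Goblet cell markers also differed between the levels, though not all in the same direction. The summed level of 3 goblet cell markers was between 12246 and 193065 normalised counts in SI centre and between 583608 and 962285 in SI row >3 libraries, and between 118909 and 188833 in LI centre and between 265414 and 439037 in LI row >3 libraries. All 3 markers were detected, and in the SI edgeR called Fcgbp (4.14) and Muc2 (2.81) higher and Clca1 (-2.04) lower in row >3 cells. Paneth cell markers, 3 of 3 detected, summed to between 12673 and 54629.7 in SI centre and between 1467 and 28909 in SI row >3 libraries, which overlapped. The part of these cell types, and of the LI markers in SI replicate 3, in the fall of the chaperones was not tested.

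Chaperones of the endoplasmic reticulum went the other way in the SI. Of 4 listed, 3 were called higher in row >3 than in centre cells, where 13.2% of all genes were called in either direction. These were Hyou1, an exchange factor of that compartment, with a log2 fold change of 1.49 (SE 0.25), Hspa5, its HSP70, with 1.47 (SE 0.25) and Hsp90b1, its HSP90, with 0.88 (SE 0.22; adjusted p = 0.0102, the highest of the 3 in edgeR). Hspa5 had 7426, 7005 and 5331 normalised counts in SI centre and 23751, 22112 and 9003 in SI row >3 cells, with no overlap and the smallest rise in replicate 3. In row >3 cells Hyou1 was also higher in the SI than in the LI, with a log2 fold change of 0.93 (SE 0.25; edgeR's adjusted p = 0.0377).

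Among 8 mitochondrial chaperones and proteases other than the HSP60 pair, 2 were called lower in SI row >3 than in SI centre cells, where 13.2% of all genes were called in either direction, the mitochondrial HSP90 Trap1 with -0.53 (SE 0.13) and the protease Lonp1 with -0.51 (SE 0.14). Of the 8, 4 had a log2 fold change above 0 and 4 below, and 2 were higher and 4 lower with no overlap of libraries. In row >3 cells 3 of the 8 were called lower in the SI than in the LI, against 4.09% of all genes, Hspa9, the mitochondrial HSP70, with -0.68 (SE 0.13), Lonp1 with -0.52 and Trap1 with -0.47.

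Among the 8 subunits of the cytosolic chaperonin CCT, which folds actin and tubulin, all had a log2 fold change below 0 between row >3 and centre cells, with a median of -0.49 in the SI and -0.17 in the LI. None was called by edgeR in the SI, where 5 had an unadjusted p under 0.05, beside 6395 of the 26717 genes tested. DESeq2 called 1 there, beside 15.9% of all genes. None was called in the LI, where 0 had an unadjusted p under 0.05 and DESeq2 called 0. In row >3 cells 1 subunit, Cct5, was called lower in the SI than in the LI with -0.64 (SE 0.17).

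Other HSP70 genes, such as Hspa13, and partners of HSP70 were mixed. Of 18 genes, 3 were called higher in SI row >3 than in SI centre cells, which is close to the 13.2% called over all genes, namely Hspa13 with 1.23 (SE 0.24), Dnaja4 with 0.95 (SE 0.31) and the exchange factor Bag3 with 0.87 (SE 0.20). In centre cells 4 of the 18 were called lower in the SI than in the LI, against 1.99% of all genes, among them Hspa13 with -1.14, Dnaja4 with -1.32 and Hspa4l with -0.87. Of 4 HSF factors and regulators, Hsbp1, a binding partner of HSF1, was called higher in SI row >3 than in SI centre cells with 0.79 (SE 0.21). None of 11 HSP90 co-chaperones was called by edgeR between row >3 and centre cells of the SI. There 3 had an unadjusted p under 0.05, beside 6395 of the 26717 genes tested, and DESeq2 called 1, beside 15.9% of all genes. None of 4 other small heat shock proteins was called by either tool or had an unadjusted p under 0.05 in this comparison.

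The 10 genes fell into groups that moved together across the 18 libraries. Correlations of log2 CPM are given as descriptions, since libraries of a site with the same replicate number deviated together and are not independent points. Hspa1a and Hspa1b had a Pearson r of 0.955, and Dnajb1 had 0.835 with Hspa1a and 0.869 with Hspa1b. Hsph1 and Hsp90aa1 had 0.909, and Hspd1 and Hspe1 had 0.946. Hspa8 and Hspd1 had 0.903, while Hspa1b and Hsp90ab1 had 0.084. The gene pairs whose promoters are printed here had the highest Pearson r of the 36 pairs of 9 genes, Hspb1 being left out for its few counts. By Spearman's rho Hsph1 with Hsp90aa1 (0.957) and Hspa8 with Hspd1 (0.917) were above both (0.903 each). By Pearson's r, 11 of the 36 had an r over 0.8.

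Deviations from the group means, which remove the site and the level, separated Hspa1a, Hspa1b and Dnajb1 from the mitochondrial genes. The inducible Hsph1 and Hsp90aa1 were not separated from them, with an r of between 0.33 and 0.54 with Hspd1 and Hspe1. Hspa1a, Hspa1b and Dnajb1 had an r of between 0.949 and 0.965 with each other and of between -0.46 and -0.30 with Hspd1 and Hspe1. Hsph1 and Hsp90aa1 had 0.918, and Hspd1 and Hspe1 had 0.887. Hspd1 and Hspe1 overlap by 112 bases on opposite strands, so some reads of 1 could be counted for the other if strand was not used.

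**Figure D5:**
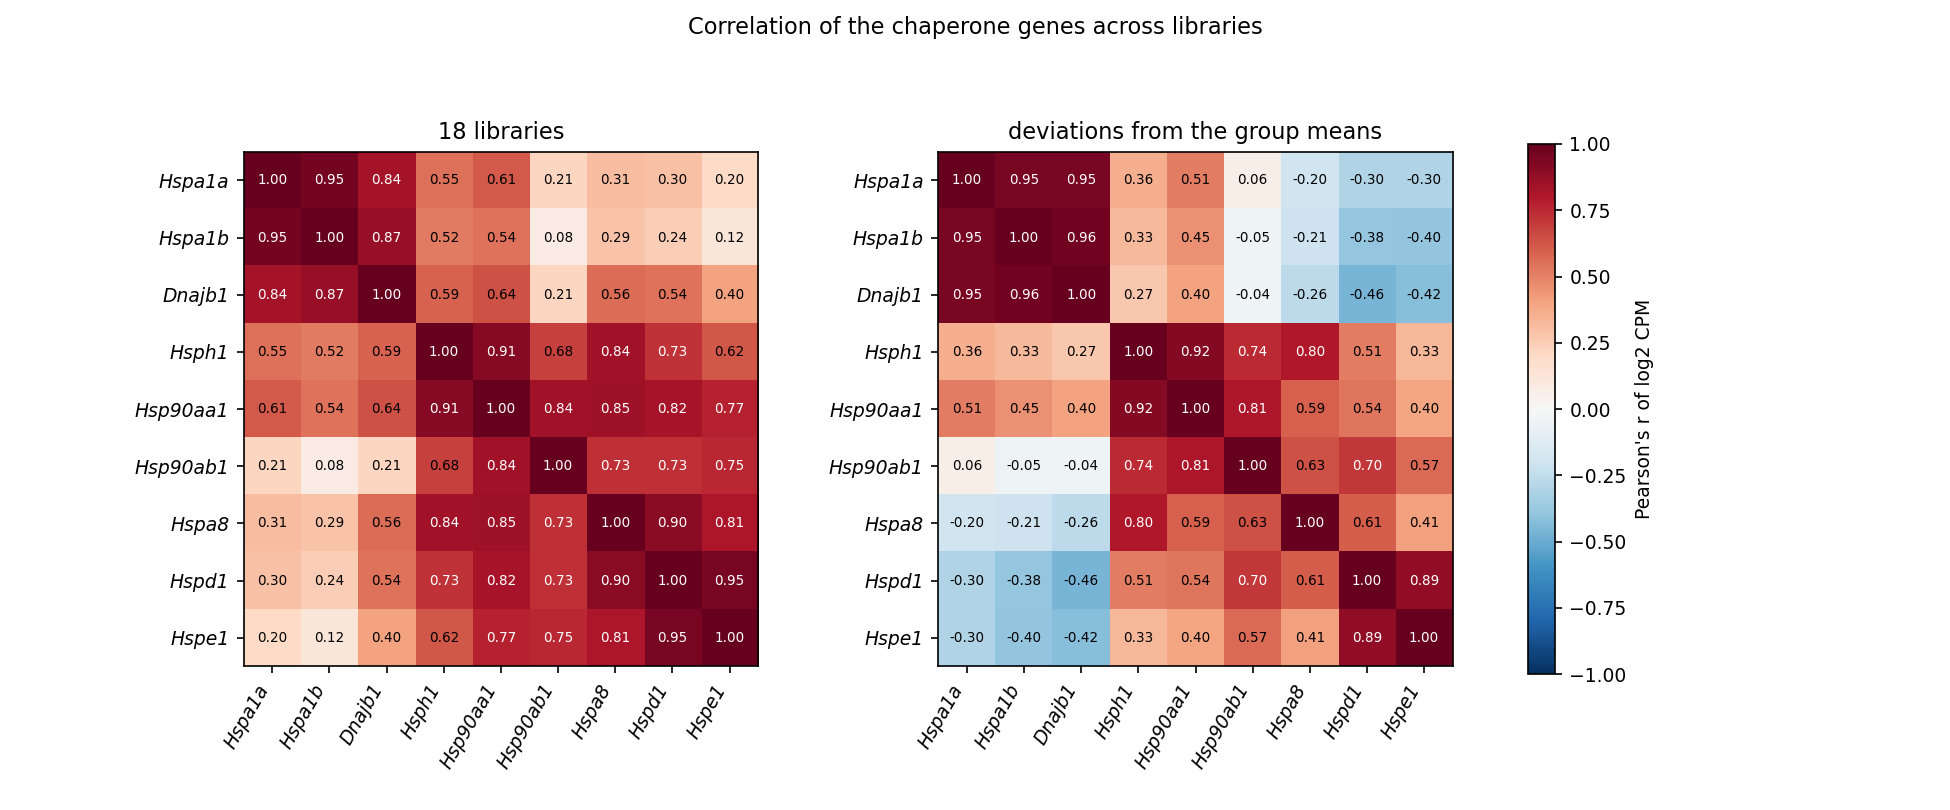
Pearson's r of log2 CPM between 9 heat shock chaperone genes across 18 libraries (left) and of their deviations from the group means (right), with red above 0 and blue below 0. Hspa1a, Hspa1b and Dnajb1 form 1 block, Hsph1 and Hsp90aa1 lie close together and Hspd1 and Hspe1 form another, and the deviations of the first block run against those of Hspd1 and Hspe1.

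Likeness was taken over 8690 genes with a mean of at least 10 CPM, and heat shock genes among them were not ranked. Those most like the mean of the 10 heat shock genes over the 18 libraries were Ifrd1 (r = 0.908), Egr2 (0.90003), Dnaja1 (0.899), Arc (0.867) and Nabp1 (0.848). The 10 were centred but not scaled, so this mean follows the genes of wide spread most. The log2 SD within groups was 2.37 for Hspa1a, 2.06 for Hspa1b, 0.98 for Hspb1 and 0.20 to 0.64 for the others. Egr2 and Arc are immediate-early genes that were not on the list of 15, and Dnaja1 encodes a J-domain partner of HSP70. Over the 9 SI libraries alone these values were lower, between -0.63 for Nabp1 and 0.44 for Arc with -0.46 for Dnaja1, against 0.91 to 0.97 over the 9 LI libraries. Those most like Hspa1b alone were Nabp1 (0.846), Dnaja1 (0.812), Ifrd1 (0.792), Tfe3 (0.785) and Usp20 (0.774). Dnaja1 had 0.957 with Hspa1b over the LI libraries and -0.396 over the SI libraries, and Nabp1, Ifrd1 and Usp20 lay between 0.060 and 0.064 over the SI libraries, where Tfe3 had 0.701. Those most like Hspd1 were Naa50 (0.959), 2810417H13Rik (0.949), Hspa9 (0.935), Prkrir (0.926) and Pcna (0.926), of which Hspa9 encodes the mitochondrial HSP70 and Pcna the sliding clamp of DNA replication.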

How the data were processed

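Per the labels and the study's methods, the authors prepared stranded libraries with a SMART-Seq kit (at least 270 pg RNA each), sequenced paired ends of 100 nt, and used bcl2fastq, Skewer and STAR with mm10. They deposited raw counts for each gene. Their deposited normalised values (a signal) are those counts over 1 size factor per library, which equals the median-of-ratios factor computed here. Which annotation was used, and whether strand was, is not given in the sources used here. GENCODE M21 on GRCm38 holds 42462 of the identifiers and gave positions and exon lengths.

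Raw counts were tested with edgeR 4.0.16 (TMM factors, mean count above 0, robust glmQLFit, 12 residual degrees of freedom) in R 4.3.3, in 11 comparisons adjusted by Benjamini-Hochberg over 26717 genes at 0.05. The fit was tested on simulated data. CPM per kb used the union of exons, and correlations used log2 CPM with a prior count of 2. Alternatives were DESeq2 1.42.0, other filters and factors, the replicate number as a block, fits on the groups compared or without replicate 3, the legacy fit and each library left out. The fits without the LI or all libraries of replicate 3 and the legacy fit were added after the data were seen. Python 3.11.15 with pandas 2.3.3, numpy 2.4.6 and matplotlib 3.10.9 made the other tables and the figures.

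Deviations from group means over 10223 genes correlated between equal replicate numbers at 0.358 to 0.783 in 9 SI pairs and 0.444 to 0.684 in 9 LI pairs. These were taken as pairs in the fit blocked within site and in the differences by replicate number. The main fit held no block. Between the sites 27 pairs gave -0.100 to 0.438, and border cells gave 0.197, 0.271 and 0.184, all over 0.1. The genes and lists were chosen with earlier results of these data known. All 10 heat shock genes are named. Of each wider list, at most the 3 called genes with the smallest adjusted p per comparison are named, and so are the 5 genes most alike to the mean of the 10, to Hspa1b and to Hspd1. Marker genes beyond these were named after their values were seen. A further marker gene of the LI list is not reported here.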

Additional observations from a re-analysis of the deposited data

Results flagged for a closer look

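Hsph1 differed in direction between the sites when border cells were compared with centre cells of the same replicate number. The log2 difference of normalised counts was -0.29, -0.07 and -0.47 in the SI, with a mean of -0.28, and 0.12, 0.01 and 0.07 in the LI, with a mean of 0.066. All 3 SI pairs lay below 0 and all 3 LI pairs above. In edgeR's test of the difference between the sites Hsph1 had a log2 value of -0.31 (SE 0.68) and was not called (adjusted p = 1). Groups of 3 were not examined for single outlying libraries.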

How the results depend on the processing

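With other settings, 126 of the counts of called genes stayed within 1.5 times and 28 did not, and with 1 library left out 202 stayed and 32 did not. Counts that were 0 and stayed 0 are among those that stayed, so this tally does not measure how stable the calls were. With 1 library left out, all counts were 0 for the comparisons within the LI, for border against centre in the SI and for both SI minus LI differences. For row >3 against centre in the SI (2 called), no filter gave 1, the replicate block over all libraries 5, the replicate block within site 6, LI replicate 3 left out 1 and only the groups compared 0. For row >3 against border in the SI (0), the replicate block over all libraries gave 2 and the replicate block within site 4. For SI against LI in centre cells (1), no filter, the legacy fit and SI replicate 3 left out gave 0, the replicate block over all libraries 2 and all of replicate 3 left out 4. In border cells (0), DESeq2, filterByExpr, library size only and LI replicate 3 left out gave 1, and the replicate block over all libraries and all of replicate 3 left out gave 4. In row >3 cells (4), no filter and SI replicate 3 left out gave 2, and RLE factors, library size only, LI replicate 3 left out and only the groups compared gave 1. The wider chaperone lists had 12 genes called in at least 1 comparison, 20 with DESeq2 and 19 with the replicate block over all libraries. Of 36 pairs of members, 11 had an r over 0.8, 5 by Spearman and 7 on deviations. With the replicate block over all libraries, the genes called in row >3 cells of SI against LI were 5, Hsp90aa1, Hspa8, Hspd1, Hspe1 and Hsph1, without Dnajb1, and those in centre cells Dnajb1 and Hsph1; equal numbers of both sites did not all deviate together at these levels. The cause of these changes was not tested. The replicate block changed no other count of calls by over 1.5 times, and a block within site could not be fitted for SI against LI.

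With each library left out in turn, called members numbered 0 to 4 for row >3 against centre and 0 to 1 for row >3 against border in the SI. For SI against LI they numbered 0 to 1 in centre, 0 to 1 in border and 0 to 5 in row >3 cells, the wider lists 7 to 17 and the immediate-early genes 14 to 15 of 15. The sign turned, for uncalled log2 fold changes, in these cases. For row >3 against centre in the SI, Hspa1b ranged from -0.28 to 0.78 and Hsph1 from -0.68 to 0.0080, where the turned values came without SI row >3 replicate 3, and library size only gave Dnajb1 -0.065. In the LI, Hspa1a ranged from -1.13 to 0.45, Hspa1b from -0.96 to 0.42, Dnajb1 from -0.44 to 0.16 and Hspe1 from -0.28 to 0.029. Without LI row >3 replicate 3, Hspa1a was 0.37, Hspa1b 0.42 and Dnajb1 0.16. Without LI centre replicate 1, Hspa1a was 0.45 and Hspa1b 0.41, and without LI centre replicate 2 they were 0.0087 and 0.12 and Dnajb1 0.087. Hspe1 turned without LI row >3 replicate 1. For SI against LI, Hsp90ab1 ranged from -0.077 to 0.11 in centre cells (turned without SI centre replicate 2, and without LI centre replicate 3) and from -0.25 to 0.064 in border cells (turned without SI border replicate 3), where it was 0.11 with SI replicate 3 left out and 0.074 with all of replicate 3 left out. Depth limits Hspb1, with 43 counts in all.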
